A study of Mus musculus with 12 samples.

Results

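The probes described here carry no gene name. The array names each of them by a stretch of the mouse genome (build mm9) and, for nearly all, by a strand, F or R. They were taken as all noncontrol probes named by such an interval, each on its own, and were chosen by signal: the scanner software had to call a probe well above background on every array of 1 or more of the 4 groups, each of 3 arrays. That detection call is a measured value, so being detected is no result here. Of 16194 interval probes among the 55681 noncontrol probes of the array, 6948 (42.9%) were kept. The array design held 8171 F probes, 8010 R probes and 13 without a strand, on 4610 stranded intervals. The files give no gene positions on this build, so whether an interval lies between genes was not tested. They hold no probe sequences either.

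RNA came from follicular B cells of the spleens of male C57BL/6J mice that were WT or Bach2-/-. Each genotype was sampled at 0 h and 24 h into culture with a Fab' fragment against mouse IgM (10 µg/mL), which engages the B cell receptor. The 4 groups held 3 arrays each, 12 in all, hybridised with Cy3 to 1-colour Agilent arrays. The labels do not say how the Bach2 allele was made, nor whether the arrays of a group came from separate mice. The p-values then cover only the spread among these arrays, possibly a technical one.

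Mammalian genomes are transcribed well beyond their protein-coding genes. The products include long intergenic non-coding RNAs, short-lived transcripts from enhancers, precursors of small RNAs and extensions of known genes, and many are expressed in few cell types. In B cells the repressor Bach2, a bZIP factor with a BTB domain, holds back the plasma cell program. Engaging the B cell receptor moves resting B cells towards growth and division and changes the transcription of much of the genome.

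Levels below are log2 of the processed signal over the 75th percentile of its array, so 0 is that percentile. The lowest such percentile, 87.4, was that of Bach2-/- 24 h array 2, and the highest, 307, that of array 1 in the same group. Between 36.5% and 60.2% of interval probes were well above background per array, against 55.9% to 69.1% of the other probes. A Bach2 probe, A_55_P1956370, was well above background on each of the 6 WT arrays and on no Bach2-/- array. A second Bach2 probe, A_66_P114768, was well above background on all 12 arrays and differed by -2.56 at 0 h and -3.75 at 24 h (Bach2-/- minus WT). All 7 B cell markers found on the array were well above background on all 12 arrays. Array 1 of Bach2-/- 0 h stood apart, because the Y-linked genes Ddx3y and Eif2s3y were not well above background there, against its label. Array 2 of Bach2-/- 24 h was the dimmest. Where a call below was lost without these 2 arrays, this is said for the probes followed across the alternatives. Array 1 of every group lay on slide 2, and arrays 2 and 3 lay on slide 1.

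The 769 members that qualified through exactly 1 group had a median level of -3.60 in their brightest group. The 1194 interval probes that missed the rule with 2 arrays of a group at most had -4.08. Of the 769, 248 qualified through WT 0 h, 172 through WT 24 h, 278 through Bach2-/- 0 h and 71 through Bach2-/- 24 h. On all 12 arrays, 4722 members were well above background. The members lay in 2545 of 3543 intervals (71.8%). With both strands of an interval counted once, the median span was 7304 bp, and the spans ran from 62 bp to 7128487 bp. Kept shares were 38.9% for intervals under 1 kb, 45.2% for 1 to 10 kb, 43.4% for 10 to 100 kb and 37.2% over 100 kb. By chromosome they ran from 33.8% on the X to 55.0% on chromosome 19.

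Probes to both strands existed for 1067 intervals. Both strands were detected in 664 of them, F alone in 161, R alone in 163 and neither in 79. Signal on a single strand thus made up 32.8% of the intervals with any signal, and 47.4% where a probe had to be well above background on all 12 arrays.

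Comparisons were made between genotypes at each time, between times in each genotype, and between the responses of both genotypes. A probe passed where its adjusted p was under 0.05 (limma, Benjamini-Hochberg over all kept probes). The share of interval probes that passed was below the share of all kept probes each time, a description with no test. In the WT response to stimulation, 964 of 6948 members passed (371 higher, 593 lower), or 13.9%, against 20.6% of all 30755 kept probes. That split moved with the arrays used: without WT 0 h array 1 it was 349 higher and 340 lower, and on slide 1 alone 516 and 504. In the Bach2-/- response 565 passed, or 8.13%, against 13.3%. Of these, 270 members rose (3.89%, against 5.7% of all kept probes) and 295 fell (4.25% against 7.58%). Between genotypes at 0 h, 23 members passed, 0.331% against 0.637%, with 22 higher in Bach2-/- cells (0.317% against 0.533%) and 1 lower (0.0144% against 0.104%). At 24 h 76 passed, 1.09% against 2.73%, with 67 higher (0.964% against 2%) and 9 lower (0.13% against 0.732%). The response difference passed for 10 members, 0.144% against 0.309%, with 9 higher (0.13% against 0.257%) and 1 lower (0.0144% against 0.052%). A member above background in 1 group alone had to differ from the others, so its differences below are a description and support nothing. The same limit holds for a member kept through 1 group alone, in comparisons with that group. Among probes well above background on all 12 arrays, 12.6% of members and 20.3% of all passed in the WT response, and 6.1% and 11.8% in the Bach2-/- response. At 0 h these shares were 0.0847% and 0.422%, at 24 h 0.508% and 1.92%, and for the response difference 0.0424% and 0.146%. In the WT response, 5.34% of members and 11.4% of all kept probes rose, and 8.53% and 9.23% fell. The bar chart of shares past the test shows these pairs.

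**Figure D1:**
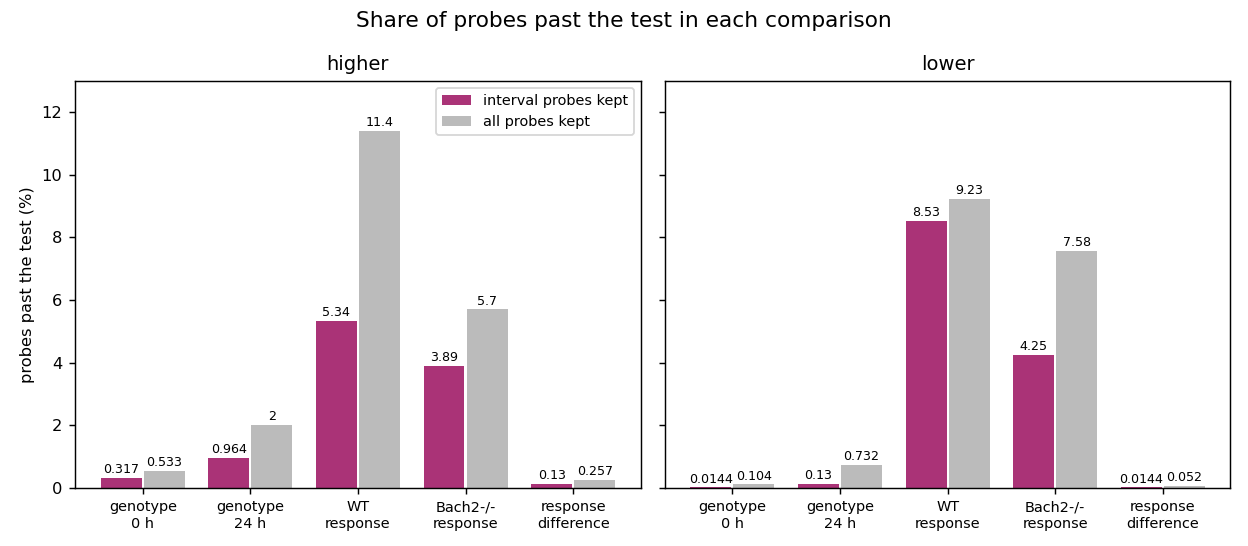
Share of probes past the test (adjusted p under 0.05), in percent, for each of the 5 comparisons, with higher values on the left and lower values on the right. Purple bars are the 6948 kept interval probes and grey bars all 30755 kept probes; the widest gap is among probes that rose in the WT response, 5.34% against 11.4%.

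With the replicate numbers of the labels as a block, more members passed. Whether these numbers mark true pairs is not settled, as array 1 of each group lay alone on slide 2. The counts became 2132 in the WT response (30.7%, against 45.8% of all probes), 1475 in the Bach2-/- response (21.2% against 32.7%), 114 and 652 between genotypes at 0 h and 24 h (1.64% against 3.19%, and 9.38% against 17.3%), and 126 for the response difference (1.81% against 3.59%). Every member that passed without the block also passed with it. Of the members called with the block, 64.0% at 0 h and 67.5% at 24 h were higher in Bach2-/-, against 95.7% and 88.2% without it. The median difference of members and of all probes was -0.14 and 0.03 in the WT response, 0.08 and 0.07 in the Bach2-/- response, and 0.20 and -0.07 for the response difference. Without the 2 arrays named above, the members' medians became -0.26 in the Bach2-/- response and -0.07 for the response difference, so their sign rests on those arrays. The WT median turned as well, to 0.01 without WT 24 h array 1. Between genotypes the medians of members and of all probes were -0.07 and 0.02 at 0 h and 0.10 and -0.05 at 24 h. Without the 2 arrays those of the members became 0.03 and -0.06.

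Among probes measured in both groups compared, the largest rises with stimulation lay on 2 intervals of different chromosomes and were alike in both genotypes. On chr5:96591892-96606467, probe A_30_P01027478 (strand F) read -1.40, -2.23 and -1.15 before and 5.31, 4.83 and 4.55 after stimulation of WT cells. Without Bach2 it read -0.08, -0.44 and 0.06 before and 6.63, 4.96 and 6.15 after stimulation. The times did not overlap in either genotype, and the rise was 6.49 ± 0.43 (SE, log2; adjusted p = 4.9e-06) in WT and 6.07 ± 0.43 (adjusted p = 3.7e-06) in Bach2-/- cells. All 3 kept F probes of this interval rose in both genotypes, by 5.50 to 6.49 in WT.

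On chr14:55433382-55452757, strand R, probe A_30_P01026296 rose by 6.41 ± 0.40 in WT (adjusted p = 3.2e-06) and by 6.20 ± 0.40 in Bach2-/- cells (adjusted p = 2.1e-06). WT cells gave -1.68, -2.28 and -1.34 before and 4.93, 4.70 and 4.29 after stimulation. Bach2-/- cells gave -0.31, -0.65 and -0.46 before and 6.44, 4.80 and 5.94 after it. Array by array these values follow the same order of groups as those of the chromosome 5 probe, with array 2 the lowest of the Bach2-/- 24 h group for both. Whether the probes of both intervals share sequence, and so would bind one RNA, was not tested. The other kept R probe, A_30_P01026835, rose by 5.62 ± 0.49 in WT and 6.08 ± 0.49 in Bach2-/- cells.

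Further rising probes lay within 8576 bp on chromosome 16. All 3 F and all 3 R probes of chr16:84702353-84710928 rose in both genotypes, F by 2.86 to 3.56 in WT and 3.67 to 4.55 in Bach2-/-, and R by 3.34 to 3.88 and 4.35 to 4.54. Inside this span, the 3 F probes of chr16:84707202-84707748 rose by 3.66 to 4.03 in WT and by 4.17 to 4.80 in Bach2-/- cells. A_30_P01032196, on chr16:84708695-84708806 (F), read 0.54, -0.82 and 0.01 in WT at 0 h and 3.78, 4.03 and 4.02 at 24 h. In Bach2-/- cells it read -0.16, -0.48 and 0.50, then 5.12, 3.99 and 4.49. Its rise of 4.03 ± 0.40 in WT (adjusted p = 5.7e-05) and 4.58 ± 0.40 in Bach2-/- cells (adjusted p = 1.7e-05) left no overlap between times. None of these 10 probes differed between genotypes or in their response by the test.

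Some rises can only be bounded, because the probe was well above background on no array of the 0 h group. In those cases the bright group's mean is set against the dim group's, taken per array as the higher of the probe's own signal and the lowest signal well above background, which gives a smallest fold. Probe A_30_P01021238 on chr9:96632664-96653249 (R) was at least 9.23-fold higher at 24 h in WT (adjusted p = 2.6e-06), and all 3 kept probes of that strand rose in both genotypes. Its neighbour A_30_P01030501 was at least 11.0-fold higher at 24 h in Bach2-/- cells (adjusted p = 2.2e-05). A_30_P01025442 on chr4:119406384-119407856 (F) was at least 8.65-fold higher at 24 h in Bach2-/- cells (adjusted p = 0.00092). It was kept through Bach2-/- 24 h alone, so this bound is a description. The WT change of that probe, 0.73 ± 0.61, did not pass, and neither did the test of the response difference (adjusted p = 0.25).

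Among probes measured at both times, the steepest falls came from intervals with many probes on one strand. On chr19:53517903-53540753, all 10 kept R probes fell in both genotypes. A_30_P01033298 read 2.26, 0.76 and 1.70 in WT at 0 h and -3.62, -3.01 and -2.58 at 24 h. The Bach2-/- arrays ran from 2.79 to 3.14 at 0 h and read -1.18, -0.49 and -1.77 at 24 h. It fell by 4.65 ± 0.43 in WT (adjusted p = 4.1e-05) and changed by -4.13 ± 0.43 in Bach2-/- cells (adjusted p = 6e-05), with the 3 arrays of each time well apart. The level at 24 h was 1.93 ± 0.43 higher in Bach2-/- cells (adjusted p = 0.036), and A_30_P01022472 and A_30_P01030158 were higher as well, by 1.78 ± 0.41 and 2.15 ± 0.46. The response difference of these 3 probes did not pass.

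On chr8:26212577-26218527, all 5 kept R probes fell in both genotypes, by 3.40 to 4.11 in WT and 3.01 to 4.04 in Bach2-/- cells. A_30_P01031844 was bright at 0 h, reading 4.15, 3.08 and 3.61 in WT and 3.35, 2.75 and 2.83 in Bach2-/- cells. At 24 h it read -0.45, -0.73 and -0.30 in WT and -0.84, -0.86 and -1.09 in Bach2-/- cells. It fell by 4.11 ± 0.29 in WT (adjusted p = 8.2e-06) and changed by -3.91 ± 0.29 in Bach2-/- cells (adjusted p = 6.1e-06). None of the 3 kept F probes of the same interval passed in either response. With the replicate block, A_30_P01020862 and A_30_P01033192 of these passed in WT (adjusted p = 0.035 and 0.018).

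Shorter intervals gave falls of like size. All 3 kept probes of chr13:52678544-52680308 (F) fell in both genotypes. A_30_P01031225 read 1.01, 0.78 and 1.60 at 0 h and -3.80, -2.36 and -1.86 at 24 h in WT, a fall by 3.80 ± 0.50 (adjusted p = 0.00041). It was above background on no Bach2-/- 24 h array and at least 17.1-fold lower there than at 0 h (adjusted p = 0.00011). A_30_P01029641, on the 632 bp of chr5:31883451-31884082 (F), read -0.28, 0.64 and 0.59 in WT at 0 h and -3.11, -2.76 and -2.64 at 24 h. In Bach2-/- cells it fell from -0.76, -0.03 and -0.09 to below background on every array, at least 13.7-fold (adjusted p = 2.8e-06). A_30_P01030209, in the longer interval around it (chr5:31856417-31916414, F), was at least 10.5-fold lower at 24 h in Bach2-/- cells (adjusted p = 0.00035). The other 3 kept probes of that stranded interval did not fall by the test, and their WT changes reached 1.32, so the 59998 bp interval did not move as one.

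Other falls came from 1 of several kept probes of an interval, from its only kept probe, or from part of its kept probes. On chr1:134867906-134885481 (R), A_30_P01030965 fell by 3.81 ± 0.50 in WT (adjusted p = 0.00041) and by 2.12 ± 0.50 in Bach2-/- cells (adjusted p = 0.015), and none of the other 9 kept probes passed in either response. On chr17:6426800-6528950 (F), A_30_P01025483 fell by 4.09 ± 0.55 in WT (adjusted p = 0.00046), and by 1.91 ± 0.55 in Bach2-/- cells (adjusted p = 0.041). The other kept F probe of that interval rose in WT, by 0.85. A_30_P01021684, the only kept probe of chr1:134245856-134246607 (F), was at least 15.2-fold lower at 24 h in WT (adjusted p = 0.00038) and at least 4.36-fold lower in Bach2-/- cells (adjusted p = 0.0074). Its WT 0 h arrays spread widely, at -2.08, -0.39 and 0.92. On chr14:73729977-73751877 (R), A_30_P01032430 was at least 6.65-fold lower at 24 h in WT (adjusted p = 0.00066), and 4 of the 6 kept probes fell. A_30_P01020833 on chr9:55925993-55926583 (R) had a bound of at least 7.24-fold lower in WT (adjusted p = 0.037), which it lost without WT 0 h array 2 or 3 or WT 24 h array 1 or 3. It was kept through WT 0 h alone, so that bound is a description.

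**Figure D2:**
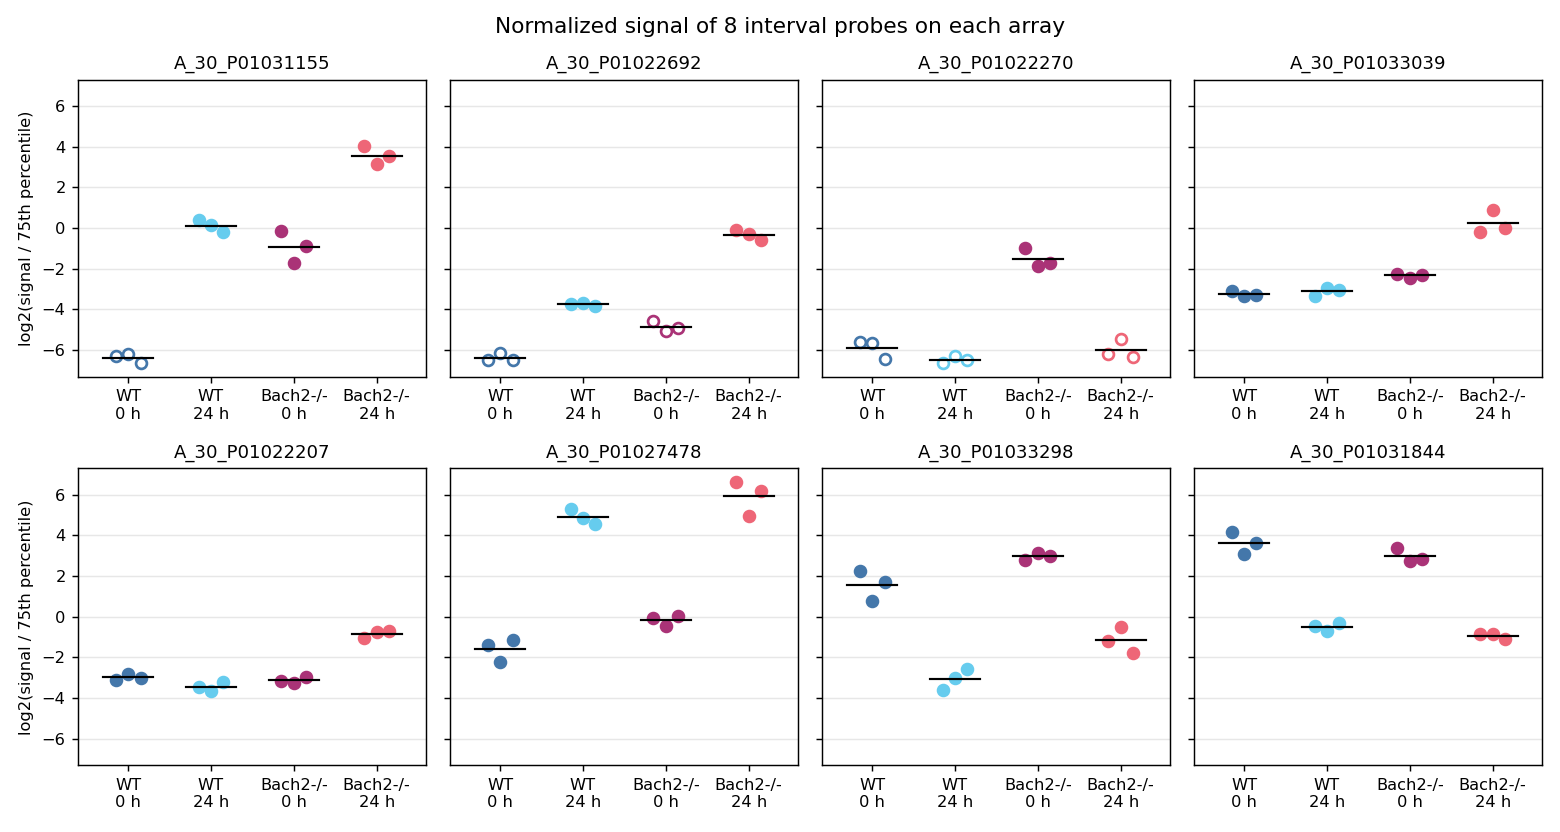
Normalized log2 signal of 8 interval probes on each of the 12 arrays, by group, with a line at the mean of 3 arrays. Filled points mark groups well above background on all 3 arrays and open points groups well above background on none; A_30_P01027478 rises and A_30_P01033298 and A_30_P01031844 fall with time in both genotypes, while A_30_P01022270 is above background in Bach2-/- 0 h alone.

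Both strands of an interval could move together or apart. The interval on chromosome 16 rose on F and R alike, while on chromosome 8 the fall was seen on R and no F probe passed without the replicate block. On chr5:96591892-96606467, 2 of the 3 kept R probes rose as well, A_30_P01029977 by 1.80 ± 0.38 in WT and 2.56 ± 0.38 in Bach2-/- cells. On chr14:55433382-55452757, 3 of the 4 F probes rose. On chr19:53517903-53540753, 4 of the 9 F probes fell in each genotype, against all 10 on R. Across the array, 60 intervals with a rise in WT on 1 strand alone had kept probes on the other strand. The median of that other strand moved the same way in 27. For falls in WT the count was 63 of 91. Taken by probe, 38.5% of all members had the sign of a rise in WT and 61.5% that of a fall. Whether the counts differ from these shares was not tested. Both counts leave out intervals that passed in the same direction on both strands, such as that on chromosome 16. How far a probe also detects the opposite strand was not tested.

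**Figure D3:**
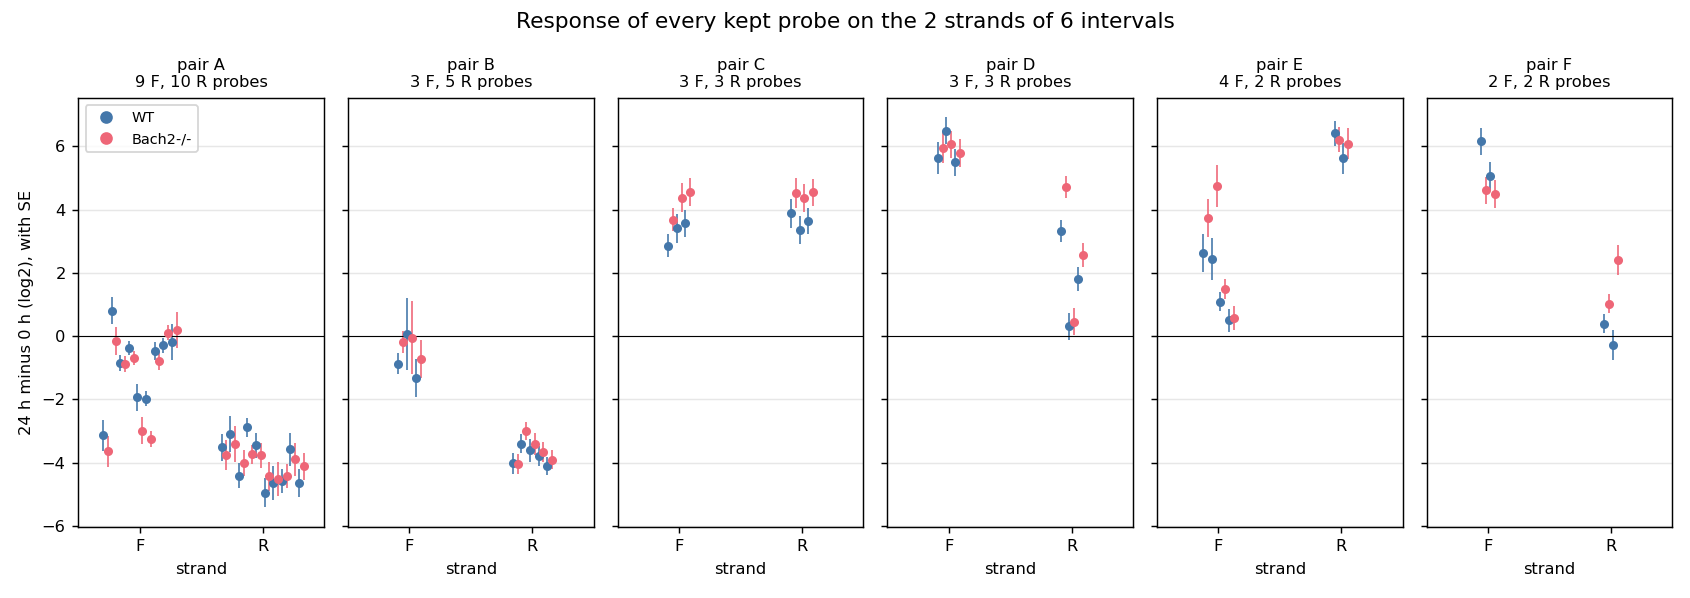
Change from 0 h to 24 h (log2, with SE) of every kept probe on the F and R strands of 6 intervals, WT in blue and Bach2-/- in red. The panels are chr19:53517903-53540753 (A), chr8:26212577-26218527 (B), chr16:84702353-84710928 (C), chr5:96591892-96606467 (D), chr14:55433382-55452757 (E) and chr6:31233512-31241062 (F); both strands rise in C, and in B the 5 R probes fall, while the 3 F probes change by -1.32 to 0.07 in WT.

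Opposite moves on the 2 strands were also counted. In the WT response 10 intervals had a probe past the test that rose on one strand and another that fell on the other, and in the Bach2-/- response 1 interval did. Of the 60 intervals above with a WT rise on 1 strand alone, 9 had a probe on the other strand that fell by the test. For the 91 with a fall, 9 had one that rose. By probe, 8.53% of all members fell and 5.34% rose in WT, so opposite moves are not shown to be rare. The examples here were chosen after their values were seen. On chr2:158169020-158191295, the F probe A_30_P01021992 fell by 2.79 ± 0.37 in WT (adjusted p = 0.00043) and by 2.30 ± 0.37 in Bach2-/- cells (adjusted p = 0.0014). On R, 3 of the 9 kept probes rose in each genotype, among them A_30_P01018875 by 1.32 ± 0.33 in WT (adjusted p = 0.015) and 1.22 ± 0.33 in Bach2-/- cells (adjusted p = 0.028). The other F probes of that interval, A_30_P01028311 and A_30_P01021832, changed by -0.12 ± 0.32 and 0.01 ± 0.35 in WT. On chr8:85609155-85615170, the F probe A_30_P01031631 was at least 2.15-fold higher at 24 h in WT (adjusted p = 0.014), while the R probe A_30_P01032801 fell by 1.52 ± 0.47 (adjusted p = 0.039).

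Probes of one stranded interval mostly moved in one direction. The 371 rises in WT lay in 206 stranded intervals and the 593 falls in 328. In those with more than 1 kept probe, 193 of the 261 probes that did not pass had the sign of a rise (73.9%, against 38.5% of all members), and 367 of 426 had the sign of a fall (86.2% against 61.5%). Only 5 probes in intervals with a rise fell by the test, and 3 in intervals with a fall rose. In the Bach2-/- response the same shares were 83.2% against 57.3% for rises and 76.9% against 42.7% for falls. For probes higher in Bach2-/- cells they were 89.2% against 41.2% at 0 h and 91.5% against 61.2% at 24 h. Intervals can overlap, so several probes may measure one RNA. The 22 members higher at 0 h lay in 11 groups of overlapping stranded intervals, and the 67 higher at 24 h in 38.

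The responses of both genotypes were set side by side. Of 371 members that rose in WT, 360 had the same sign in Bach2-/- cells and 158 also passed there. Of 593 that fell, 554 had the same sign and 226 passed. In both responses 385 members passed, and 384 of them moved the same way. These 384 were 39.8% of the WT calls and 68.0% of the Bach2-/- calls. The overlap was not counted over all kept probes, so it is not shown to be particular to interval probes. Across the 6948 probes the responses correlated at Pearson r 0.737 and Spearman rho 0.605. Probes of one interval are not independent, and the points share the 12 arrays. The exception among the 385, A_30_P01021447, is described with the response differences.

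**Figure D4:**
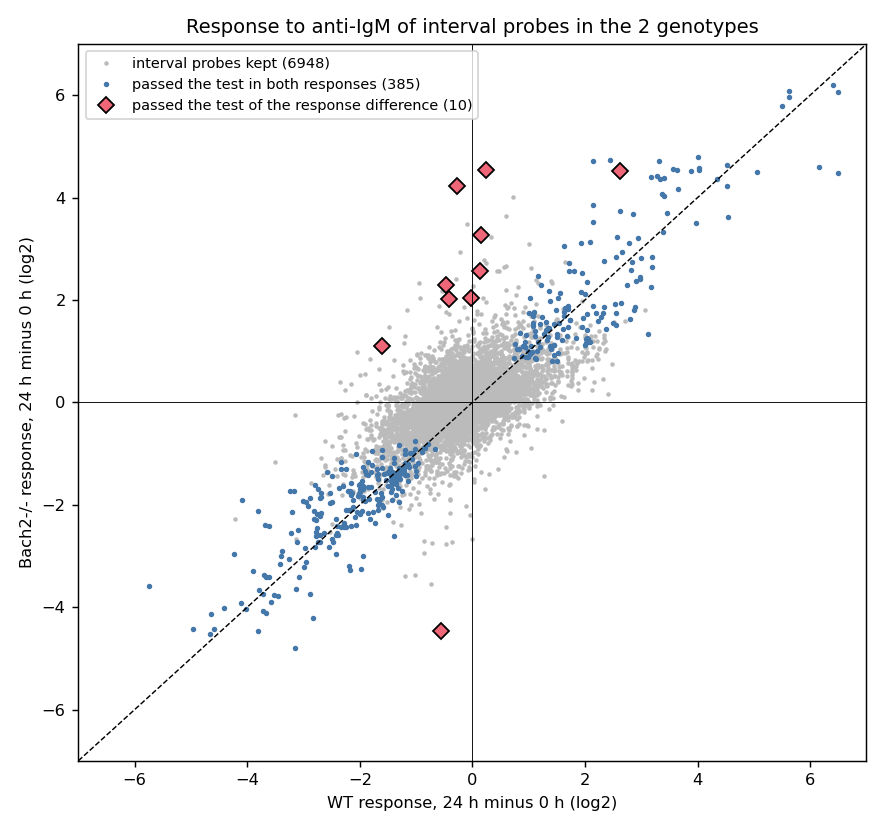
Change from 0 h to 24 h (log2) in WT cells on the horizontal axis and in Bach2-/- cells on the vertical axis, for 6948 interval probes (grey), the 385 past the test in both (blue) and the 10 past the test of the response difference (red diamonds). The dashed line marks equal responses; 9 diamonds lie above it, and A_30_P01022270, which fell in Bach2-/- cells, lies below.

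At 0 h, 6 of the 22 members higher in Bach2-/- cells lay on overlapping F intervals of chromosome 6. These intervals span chr6:31170350-31287353, chr6:31233512-31241062 and chr6:31267612-31293337. Probe A_30_P01031155 of the first read -6.30, -6.18 and -6.64 in WT, above background on no array, and -0.14, -1.71 and -0.89 in Bach2-/- cells. It was at least 13.1-fold higher in Bach2-/- cells (adjusted p = 7.3e-05). After 24 h it read 0.38, 0.15 and -0.19 in WT and 4.03, 3.14 and 3.52 in Bach2-/- cells, 3.44 ± 0.38 higher (adjusted p = 0.00045). It rose in WT at least 26.8-fold (adjusted p = 2.8e-06) and in Bach2-/- cells by 4.48 ± 0.38 (adjusted p = 1.5e-05). At neither time did the genotypes overlap.

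The other probes of these intervals gave the same order of groups in part. A_30_P01022038 and A_30_P01030148, of the second interval, were at least 9.97-fold (adjusted p = 0.00027) and at least 7.53-fold (adjusted p = 0.0016) higher in unstimulated Bach2-/- cells. At 24 h they were 3.39 ± 0.43 and 3.42 ± 0.44 higher. In the first interval, A_30_P01019476 was 1.84 ± 0.30 higher before stimulation (adjusted p = 0.016) and 3.54 ± 0.30 after it (adjusted p = 7.3e-05). A_30_P01026510 was 3.24 ± 0.45 higher at 24 h (adjusted p = 0.0021). In the third, 3 of the 4 kept F probes were higher at 24 h and 1 at 0 h. On the R strand, A_30_P01025627 of the second interval was at least 3.31-fold higher at 24 h (adjusted p = 0.0040), and the 2 kept R probes of the third did not pass.

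Probes of a locus on chromosome 3 were higher in unstimulated Bach2-/- cells. On chr3:90425270-90435820 (F), A_30_P01022270 read -5.62, -5.67 and -6.45 in WT at 0 h and -0.99, -1.85 and -1.70 in Bach2-/- cells. It was above background on the Bach2-/- 0 h arrays alone, at least 8.66-fold higher than in WT (adjusted p = 0.00011) and at least 6.41-fold higher than in Bach2-/- cells at 24 h (adjusted p = 6.4e-06). It was kept through that group alone, so these values are a description. A_30_P01021250, measured in both genotypes at 0 h, was 2.68 ± 0.29 higher in Bach2-/- cells (adjusted p = 0.0012), from -3.80, -3.54 and -3.53 to -0.41, -1.31 and -1.11. It fell in Bach2-/- cells by 2.94 ± 0.29 (adjusted p = 4.2e-05). Of the 5 kept F probes, 3 were higher at 0 h, and neither of the 2 R probes was.

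On chromosome 19, the F probe A_30_P01024775 of chr19:53517903-53540753 was 1.87 ± 0.24 higher in Bach2-/- cells at 0 h (adjusted p = 0.0038), at 3.19, 2.83 and 2.91 against 1.04, 0.90 and 1.37. The R probe A_30_P01027848 was 1.73 ± 0.30 higher (adjusted p = 0.025). That call was lost in 10 alternatives, among them leaving out any one Bach2-/- 0 h array or the 2 arrays that stand apart. A_30_P01026237 on chr9:121845920-121858120 (F) was 2.48 ± 0.36 higher (adjusted p = 0.0090), and A_30_P01024764 on chr9:121846340-121848578 (F) 2.21 ± 0.36 (adjusted p = 0.017). Both calls were lost without the 2 arrays that stand apart. Leaving out array 3 of WT 0 h or array 3 of Bach2-/- 0 h ended them as well. A_30_P01017759 on chr6:145936225-145965575 (R), 2.45 ± 0.43 higher (adjusted p = 0.027), lost it without any single WT 0 h array and without Bach2-/- 0 h array 1 or 3.

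Further calls at 0 h came mostly from probes below background in WT. A_30_P01021238 of chr9:96632664-96653249 (R), described among the rises, was at least 1.83-fold higher in Bach2-/- cells (adjusted p = 0.0016). On chr2:128137419-128141735 (R), A_30_P01023785 was at least 1.42-fold higher (adjusted p = 0.016). A_30_P01027827 of the same interval passed too (adjusted p = 0.013) but has no size, being above background on 1 Bach2-/- array and no WT array. On chr2:128142035-128142481 (R), A_30_P01027743 was at least 1.91-fold higher (adjusted p = 0.022). On chr12:32781477-32808567 (R), 2 of 3 kept probes were higher, A_30_P01017808 by 1.56 ± 0.26 (adjusted p = 0.020) and A_30_P01032506 at least 2.43-fold (adjusted p = 0.0083), and all 3 fell in the Bach2-/- response. A_30_P01020451 on chr3:88028201-88031439 (F) had a bound of 1.91-fold higher (adjusted p = 0.033). For A_30_P01025716 on chr3:27837825-27880925 (F) the bound was 1.38-fold (adjusted p = 0.017). The single lower call, A_30_P01029884 on chr5:23195569-23218551 (F), came from a probe above background on 1 WT 0 h array and no Bach2-/- 0 h array, so no size is given. These probes were named after their values were seen. With normexp background correction, 5 members passed at 0 h in place of 23, 3 of them the same. The leading probes of chromosomes 6 and 3 were among those lost (adjusted p = 0.18 for A_30_P01031155 and 0.24 for A_30_P01022270, over alternatives that reach 3.8e-06 and 3.8e-05). Without the 2 arrays that stand apart 14 members passed, 13 of them the same.

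At 24 h, the members higher in Bach2-/- cells included the chromosome 6 probes above and a group of R intervals on chromosome 2. All 3 kept probes of chr2:128137419-128141735 and all 3 of chr2:128211990-128215223 were higher, with 1 of 1 on chr2:128142035-128142481 and 1 of 2 on chr2:128217275-128217972. Of these, 2 of the first 3 and the 1 of chr2:128142035-128142481 had passed at 0 h too. A_30_P01033039, measured on all 12 arrays, read -3.34, -2.97 and -3.03 in WT and -0.20, 0.87 and 0.02 in Bach2-/- cells at 24 h, 3.34 ± 0.28 higher (adjusted p = 7.3e-05). At 0 h it read -3.10, -3.33 and -3.29 in WT and -2.24, -2.44 and -2.32 in Bach2-/- cells. That smaller gap of 0.91 ± 0.28 did not pass (adjusted p = 0.34). In the same interval A_30_P01019146 was at least 6.90-fold higher at 24 h (adjusted p = 0.0035). For A_30_P01026520 the bound was at least 4.64-fold (adjusted p = 0.00045). In the first interval, A_30_P01023701, A_30_P01023785 and A_30_P01027827 were at least 3.08-fold, 2.92-fold and 2.96-fold higher. A_30_P01027827 was kept through Bach2-/- 24 h alone, so its bound is a description.

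On chr5:92556322-92558910 (F), all 3 kept probes were higher in Bach2-/- cells at 24 h and none at 0 h. A_30_P01032750 read -2.82, -3.24 and -3.04 in WT and 0.70, -0.03 and -0.32 in Bach2-/- cells, 3.15 ± 0.41 higher (adjusted p = 0.0014). A_30_P01024079 was at least 6.69-fold higher (adjusted p = 7.3e-05), but was kept through Bach2-/- 24 h alone. On chr19:4991356-4993113 (R), A_30_P01020765 was above background on no array but those of Bach2-/- at 24 h, where it read -1.81, -1.77 and -2.38, at least 5.48-fold above WT (adjusted p = 7.3e-05). It too was kept through that group, so neither difference is support. The other kept probe of that interval did not pass. Close by, A_30_P01022754 of chr19:4994325-4994537 (R), 1 of its 3 kept probes, was at least 3.01-fold higher (adjusted p = 0.0075). A_30_P01021038 on chr8:122920901-123008463 (F) was at least 7.41-fold higher (adjusted p = 0.0015). It was also kept through Bach2-/- 24 h alone, so this is a description. Its call was lost with normexp background correction (adjusted p = 0.081).

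The largest bound between genotypes was on chr6:145936225-145965575 (R). There A_30_P01031877 read -6.64, -4.14 and -5.15 in WT at 24 h, above background on no array, and -0.26, 1.38 and -0.25 in Bach2-/- cells, at least 26.6-fold higher (adjusted p = 0.00042). At 0 h it read -1.82, -2.48 and -2.16 in WT and 1.11, -0.10 and 0.61 in Bach2-/- cells, without overlap, but this difference of 2.70 ± 0.61 did not pass without the replicate block (adjusted p = 0.10) and passed with it (adjusted p = 0.046). It fell in WT, at least 4.88-fold (adjusted p = 0.0042), and the Bach2-/- change of -0.25 ± 0.61 did not pass. The response difference did not pass either (adjusted p = 0.35). A_30_P01017759 of the same stranded interval was 3.1 ± 0.43 higher at 24 h (adjusted p = 0.0021). The other 2 kept probes did not pass, though with the block A_30_P01029107 did at 24 h (adjusted p = 0.0048).

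Other probes were higher in Bach2-/- cells at 24 h by smaller margins. On chr5:22890322-22939119 (R), A_30_P01021129 read -1.76, -2.72 and -2.41 in WT at 0 h and was above background on no WT array at 24 h. The Bach2-/- arrays read -1.54, -1.81 and -1.05, then -3.02, -4.99 and -3.62. It was at least 1.48-fold higher in Bach2-/- cells at 24 h (adjusted p = 0.039). On chr13:108653722-108654406 (R), all 3 kept probes were higher at 24 h, by 1.44 to 1.65, with A_30_P01017920 at -0.38, -0.31 and 0.10 in WT and 1.02, 2.06 and 1.27 in Bach2-/- cells (adjusted p = 0.018). None of the 3 passed in either response, but with the replicate block A_30_P01017920 and A_30_P01020161 passed in WT (adjusted p = 0.032 and 0.042). These probes were named after their values were seen.

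Fewer members were lower in Bach2-/- cells at 24 h, 9 against 67 higher. A_30_P01029641 on chr5:31883451-31884082 (F), described among the falls, was at least 2.36-fold lower (adjusted p = 0.0025). A_30_P01022120 on chr13:22110479-22116629 (R) differed by -1.57 ± 0.34 (adjusted p = 0.032), at 0.22, -0.15 and 0.38 against 2.57, 1.30 and 1.29 in WT. A_30_P01021097 on chr5:149947200-149979950 (F) had a difference of -1.08 ± 0.25 (adjusted p = 0.049). A_30_P01017684 on chr17:17492400-17507525 (F) and A_30_P01025695 on chr4:98943050-98959998 (R) had bounds of at least 1.2-fold and at least 1.1-fold lower. A_30_P01017684 was kept through WT 24 h alone, so its bound is a description. These 5 of the 9 were followed across the alternatives. A_30_P01029641 lost the call in 1 of them, normexp background correction (adjusted p = 0.998). Each of the other 4 lost the call in 8 to 13 alternatives. For all 4, these included leaving out the 2 arrays that stand apart and leaving out WT 24 h array 1, Bach2-/- 24 h array 2 or Bach2-/- 24 h array 3.

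The summed levels of some, not all, lists of markers of other blood cells differed with genotype in these libraries. For erythroid and platelet cells, the summed level (log2 of the sum) of the 7 markers on the array was 1.06 to 3.04 in WT and 4.28 to 5.87 in Bach2-/- cells at 0 h. At 24 h it was -1.30 to 0.67 in WT and 2.16 to 4.27 in Bach2-/- cells. None of the 7 passed at 0 h and 3 were higher at 24 h. Neutrophil markers (9 on the array) summed to 3.65 to 5.11 in WT and 4.87 to 5.89 in Bach2-/- cells before stimulation. After it they summed to 0.84 to 4.23 and 3.69 to 5.82, and none passed at either time. Their median difference at 0 h was 2.285 (Bach2-/- minus WT), with Elane the other way at -0.73. Of these lists 2 and 4 markers, among them the haemoglobin gene Hba-a1 and the calprotectin gene S100a8, were above background on all 12 arrays. Plasma cell markers summed to 5.58 to 6.07 in WT and 5.99 to 7.17 in Bach2-/- cells before stimulation, with 1 of 4 higher. After it they summed to 5.50 to 6.20 and 6.36 to 7.26, with 2 of 4 higher. B cell markers (7) summed to 10.1 to 10.6 in WT and 10.2 to 10.9 in Bach2-/- cells at 0 h, and to 8.81 to 9.73 and 7.87 to 8.65 at 24 h, where 1 was lower. NK cell markers (5) summed to 3.27 to 3.76 and 3.99 to 4.22 before and to 3.15 to 3.43 and 3.38 to 3.92 after stimulation, and none passed. T cell markers did not differ at 0 h by the test, and 3 of 9 were higher at 24 h. In bulk samples, more cells of a type and more RNA per cell cannot be told apart. The part of such cells in the genotype differences of the interval probes was not tested.

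The response to stimulation differed between genotypes for 10 members. Only A_30_P01022207 and A_30_P01033039 of these were above background on all 12 arrays. A_30_P01022207, the only kept probe of chr14:64735748-64736349 (R), read -3.09, -2.81 and -3.02 in WT at 0 h and -3.46, -3.66 and -3.20 at 24 h. The Bach2-/- arrays read -3.16, -3.26 and -2.96, then -1.03, -0.74 and -0.72. Only the Bach2-/- 24 h arrays stood above the rest. The rise of 2.29 ± 0.22 in Bach2-/- cells (adjusted p = 3.6e-05) exceeded the WT change of -0.47 ± 0.22 by 2.76 ± 0.31 (adjusted p = 0.0032).

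For A_30_P01033039 on chromosome 2, the rise of 2.56 ± 0.28 in Bach2-/- cells (adjusted p = 9.1e-05) exceeded the WT change of 0.13 ± 0.28 by 2.44 ± 0.40 (adjusted p = 0.029). On chr1:175653557-175671940 (R), A_30_P01021447 moved in opposite directions. It read -4.30, -4.91 and -4.66 in WT at 0 h and was above background on no WT array at 24 h, a fitted change of -1.60 ± 0.31 (adjusted p = 0.0042). In Bach2-/- cells it rose by 1.11 ± 0.31 (adjusted p = 0.036), from -3.42, -4.23 and -4.26 to -2.92, -2.86 and -2.81. It was above background on 1 of 3 arrays of WT 0 h, so the size of the WT fall is not measured. The other kept probe of that interval, A_30_P01019537, did not pass in either response (adjusted p = 0.082 in WT and 0.41 in Bach2-/- cells).

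For the remaining 7, at least 2 groups had no array above background, so the sizes fitted there are not measured folds. A_30_P01024079 on chromosome 5, A_30_P01020765 on chromosome 19 and A_30_P01019442 on chr5:14943275-14944205 (F) were above background in Bach2-/- 24 h alone, at least 7.64-fold, 6.26-fold and 2.44-fold higher there than in Bach2-/- at 0 h (adjusted p = 2.3e-05, 6.7e-06 and 0.00011). All 3 were kept through that group alone, so these values only describe it. For A_30_P01019442 the call was lost in 14 of 21 alternatives, among them slide 1 alone, the eBayes trend and leaving out the 2 arrays that stand apart. A_30_P01022692 on chr6:31267612-31293337 (F) rose in both genotypes, at least 1.84-fold in WT (adjusted p = 3.1e-05) and at least 18.5-fold in Bach2-/- cells (adjusted p = 5.7e-07). A_30_P01023701 and A_30_P01027827 on chr2:128137419-128141735 (R) rose in Bach2-/- cells and were above background on no WT array. A_30_P01027827 was kept through Bach2-/- 24 h alone, so its values are a description. A_30_P01022270 on chromosome 3, kept through Bach2-/- 0 h alone, was the single member with a lower response in Bach2-/- cells. With quantile normalization 10 members passed, 6 of them higher and 6 the same as above. With normexp background correction 0 passed in limma, and 160 members had an unadjusted p under 0.05, against 412 with the processed signal.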

How the data were processed

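The 12 arrays are 1-colour Agilent mouse arrays scanned with Feature Extraction 10.7.3.1, per the submitters' processing notes and the file headers. The deposited processed signal is an intensity that the software had already background-subtracted, per the file headers. The deposited value table holds log2 values, whose normalization and centring the labels do not state, with column medians from -0.271 to 0.495, and it served as an alternative. Signals were divided by the 75th percentile of each array over noncontrol probes, floored at 0.01 and put on the log2 scale. Outlier-flagged spots were left out, so 132 members lacked at least 1 array in the fit. Spots of one probe were averaged and every probe was tested on its own.

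Group means were fitted over all 12 arrays with limma 3.58.1 in R 4.3.3 (lmFit, eBayes, 8 residual degrees of freedom), with Benjamini-Hochberg adjustment over 30755 probes. The code was tested on simulated data. Python 3.11.15, pandas 2.3.3 and matplotlib 3.10.9 drew the figures. Named probes are, per comparison and direction among members past the test, up to 8 with the largest difference measured on all 6 arrays and up to 4 with the largest bound (up to 4 for the response difference). Others in the same intervals are named for comparison, and the rest are marked as chosen later. The members and lists were chosen with earlier results of these data known. With 3 arrays a group, their number sets the precision.

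The data do not settle whether the replicate numbers mark true pairs. Same-numbered arrays deviated together from their group means in all 18 pairs (r 0.451 to 0.879). Array 1 of each group lay on a different slide from the rest of its group, so number and slide are partly confounded. On slide 1, same-numbered pairs gave 0.451 to 0.728 and other pairs 0.237 to 0.631, and these ranges overlap. Pairs across slides gave -0.798 to -0.404. Not every probe that the rule picks is described, and 1 is not reported here. The intergenic status of intervals and the distance to the nearest gene were not analysed here, since the gene table in use is of another build, GRCm38.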

Additional observations from a re-analysis of the deposited data

Results flagged for a closer look

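The response to stimulation differed between genotypes for 10 interval probes by the test of the difference itself (limma, adjusted over all kept probes), and each is given as the Bach2-/- response minus the WT response on the log2 scale. Measured on all 12 arrays were A_30_P01022207 (2.76, adjusted p = 0.0032) and A_30_P01033039 (2.44, adjusted p = 0.029). The next 8 include groups below background, so their sizes are fitted values and no folds. They were A_30_P01024079 (4.51, adjusted p = 0.0044), A_30_P01020765 (4.30, adjusted p = 0.0033), A_30_P01019442 (3.12, adjusted p = 0.031), A_30_P01021447 (2.71, adjusted p = 0.029), A_30_P01023701 (2.44, adjusted p = 0.029), A_30_P01027827 (2.06, adjusted p = 0.033), A_30_P01022692 (1.88, adjusted p = 0.039) and A_30_P01022270 (-3.91, adjusted p = 0.0048). The call of A_30_P01019442 was lost in 14 of 21 alternatives, among them slide 1 alone, the eBayes trend and leaving out the 2 arrays that stand apart. That probe, A_30_P01024079, A_30_P01020765, A_30_P01027827 and A_30_P01022270 were kept through 1 group alone, so their differences are a description. Leaving out 1 array at a time left 4 to 7 members past this test.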

How the results depend on the processing

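Counts of members past the test are given in the order 0 h, 24 h, WT response, Bach2-/- response and response difference. Normexp background correction, an alternative chosen after seeing the data, gave 5, 18, 433, 244 and 0. Fitting only probes well above background on all 12 arrays, and so fewer probes, gave 4, 16, 624, 289 and 2. The slide as a block gave 97, 466, 1972, 1309 and 94, and the replicate block 114, 652, 2132, 1475 and 126. Fitting the compared groups alone gave 10 at 0 h and 38 at 24 h. Slide 1 alone gave 911 in the Bach2-/- response, leaving out the arrays that stand apart gave 14 at 0 h and 46 at 24 h, and a trended prior gave 5 for the response difference. Quantile normalization kept the counts within 1.5 times but gave 23 higher and 4 lower at 0 h, and 6 and 4 for the response difference. Leaving out 1 array at a time gave 9 to 21, 40 to 76, 539 to 852, 365 to 552 and 4 to 7. Moves over 1.5 times came at 0 h without WT 0 h array 3 (9), Bach2-/- 0 h array 1 (14) or 3 (11). At 24 h they came without WT 24 h array 1 (41), 2 (48) or 3 (40) or Bach2-/- 24 h array 3 (49). The WT response moved without WT 0 h array 3 (539) or WT 24 h array 1 (565), and the Bach2-/- response without Bach2-/- 0 h array 3 (365). The response difference moved without WT 0 h array 1 (6), 2 (5) or 3 (4) or WT 24 h array 1 (4) or 2 (5). It also moved without Bach2-/- 0 h array 2 (6) or 3 (4) or Bach2-/- 24 h array 3 (5). The cause of these shifts was not tested. Of 80 named results, 56 passed in every alternative, 14 were lost in 1 and 10 in more, and none changed sign. Signals near background limit the dim probes most. Not run, for want of gene positions and probe sequences on the files' build, were the nearest-gene and intergenic checks.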
